A study of Mus musculus with 2 samples.

Results

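The organic anion, cation and bile acid carriers are membrane proteins that move bile acids, steroid conjugates, carnitine and many drugs across the hepatocyte surface. They were taken as every gene symbol of the families Slco, Slc22a, Slc10a and Slc47a followed by a digit, which gave 48 of the 21878 symbols listed. Of these, 30 reached 20 counts when both libraries were added together and are described; they are compared with the 13027 genes of the whole table that met the same minimum. A count is the number of reads the authors assigned to a gene, and FPKM is that count divided by the length of the gene model and by the library total, which allows levels to be set side by side between genes.

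The study profiled polyA RNA from liver of FVB/N mice in 2 libraries, 1 labelled TSA and 1 untreated, and the labels do not expand the name TSA. Both carry c-Myc given by hydrodynamic injection, in which fluid pushed quickly into the tail vein takes DNA mainly into hepatocytes, so neither is a liver without c-Myc. Dose, length of treatment, age, sex, the number of animals behind a library, and whether the sample was tumour, whole liver or a mix do not appear in the labels. The series title speaks of a slower course of c-Myc-driven liver cancer under TSA. A single library stands for each group, so no difference could be checked against replicates and no p-value is given, and each ratio stands with a 95% interval for counting error alone.

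In the liver, sodium-dependent and sodium-independent carriers on the blood side of the hepatocyte take up bile acids and other organic anions from portal blood, and export pumps on the canalicular side pass them into bile. SLC10A1 (NTCP) is the main sodium-dependent bile acid carrier, and the OATP proteins encoded by the Slco genes take up bilirubin conjugates, hormones and drugs. The SLC22 family holds the organic cation, carnitine and organic anion transporters of liver and kidney, and SLC47A1 (MATE1) exports organic cations in exchange for protons.

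The stretch around the transcription start is shown for the 3 most abundant carriers with TSA, all much higher than without treatment. *Slc22a26* and *Slc22a7* had higher ratios than these 3 and are not shown. The stretch is also shown for both described carriers that had counts without treatment and none with TSA. Each stretch runs from 250 bases before to 50 bases after the start, from RefSeq on GRCm38.p6, 5′ to 3′ on the strand of the gene. That build is the one of the reference, and the build behind the count files is not given in the sources used. Capitals mark AGGTCA, a half-site of nuclear receptors, searched on both strands, so that TGACCT is AGGTCA on the other strand. The *Slco1b2* stretch lies at chr6:141629268-141629567 on the plus strand, *Slco1a1* at chr6:141946913-141947212 on the minus strand, and *Slc10a1*, with the nearer of 2 listed starts, at chr12:80968030-80968329 on the minus strand. The *Slc22a8* stretch lies at chr19:8592932-8593231 and that of *Slc22a6* at chr19:8617746-8618045, both on the plus strand.
Slco1b2: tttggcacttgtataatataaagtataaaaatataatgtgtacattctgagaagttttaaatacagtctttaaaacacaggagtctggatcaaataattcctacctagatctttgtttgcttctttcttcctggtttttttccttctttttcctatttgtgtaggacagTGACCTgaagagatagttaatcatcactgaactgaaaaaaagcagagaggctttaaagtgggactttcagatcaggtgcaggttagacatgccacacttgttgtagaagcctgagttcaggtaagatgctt
Slco1a1: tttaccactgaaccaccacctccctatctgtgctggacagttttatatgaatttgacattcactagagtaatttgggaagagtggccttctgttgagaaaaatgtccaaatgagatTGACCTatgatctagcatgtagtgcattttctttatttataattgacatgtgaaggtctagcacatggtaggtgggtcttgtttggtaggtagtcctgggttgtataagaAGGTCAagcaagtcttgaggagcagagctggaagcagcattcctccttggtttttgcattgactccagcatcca
Slc10a1: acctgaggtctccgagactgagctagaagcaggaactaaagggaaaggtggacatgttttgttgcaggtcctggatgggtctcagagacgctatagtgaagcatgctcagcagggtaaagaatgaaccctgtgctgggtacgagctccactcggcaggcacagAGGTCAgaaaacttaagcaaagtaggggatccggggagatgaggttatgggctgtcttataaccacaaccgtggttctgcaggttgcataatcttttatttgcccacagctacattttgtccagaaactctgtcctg
Slc22a8: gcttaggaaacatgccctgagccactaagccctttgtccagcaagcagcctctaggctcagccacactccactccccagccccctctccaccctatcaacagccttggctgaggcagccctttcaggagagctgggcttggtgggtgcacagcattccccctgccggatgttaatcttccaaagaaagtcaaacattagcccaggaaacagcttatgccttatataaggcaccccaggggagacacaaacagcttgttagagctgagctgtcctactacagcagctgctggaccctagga
Slc22a6: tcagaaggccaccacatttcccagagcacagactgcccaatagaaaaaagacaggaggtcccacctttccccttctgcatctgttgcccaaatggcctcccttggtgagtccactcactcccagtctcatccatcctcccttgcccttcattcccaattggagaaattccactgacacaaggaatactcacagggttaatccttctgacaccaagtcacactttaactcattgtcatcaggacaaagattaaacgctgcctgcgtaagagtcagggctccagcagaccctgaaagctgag

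*Slco1a1* held the nuclear receptor half-site at 134 and at 24 bases before its start, *Slco1b2* at 81 and *Slc10a1* at 87. The window of the other listed *Slc10a1* start, at chr12:80968656-80968955 and not shown, does not hold it. The letters did not occur in the *Slc22a8* and *Slc22a6* stretches shown, but did in that of *Slco4a1*, also lower with TSA and not shown. They were also missing around the starts of *Slc22a26*, *Slc22a30*, *Slc10a2* and *Slco1a4*, which were far higher with TSA and are not shown. The stretches shown are thus not a fair sample for these letters. RefSeq stretches were found for 23 of the 30 described carriers, in 27 windows. AGGTCA stood in 5 of the 27 windows (18.5%) and in 16.3% of the 32851 stretches of the reference. The 5 windows belonged to *Slc10a1*, *Slc22a27*, *Slco1a1*, *Slco1b2* and *Slco4a1*. These matches describe letters and are not binding sites.

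The carriers took 0.594% of all counts in the TSA library, against 0.0438% in the untreated library. Their summed FPKM was 1888 with TSA and 121 without, a ratio of 15.6. Library sizes were then scaled by TMM, a method that takes most genes as equal, and a gene was called when its ratio reached 2 in either direction and its interval lay wholly on that side of 1. By this rule 22 of the 30 described carriers were higher with TSA, beside 26.0% of all genes, 3 were lower, beside 27.4% of all genes, and 5 were neither. With total counts in place of TMM 19 were higher, beside 16.0% of all genes, and 5 lower, beside 48.7%. The median log2 ratio of the carriers was 4.63, against -0.11 for all genes; scaling by total counts lowers every log2 ratio by 0.85. The ratio reached 10 in 17 carriers, beside 7.81% of all genes, and 100 in 8, beside 1.94%, and 1 carrier was at least 10-fold lower, beside 5.50%. The minimum itself bears on these counts: 11 carriers had under 20 counts in one of the libraries, of which 7 were higher, 3 lower and 1 neither. Among the 19 with at least 20 in each library 15 were higher, none lower and 4 neither. The shares of all genes under this split were not computed, and the shares above belong to the summed minimum.

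**Figure D1:**
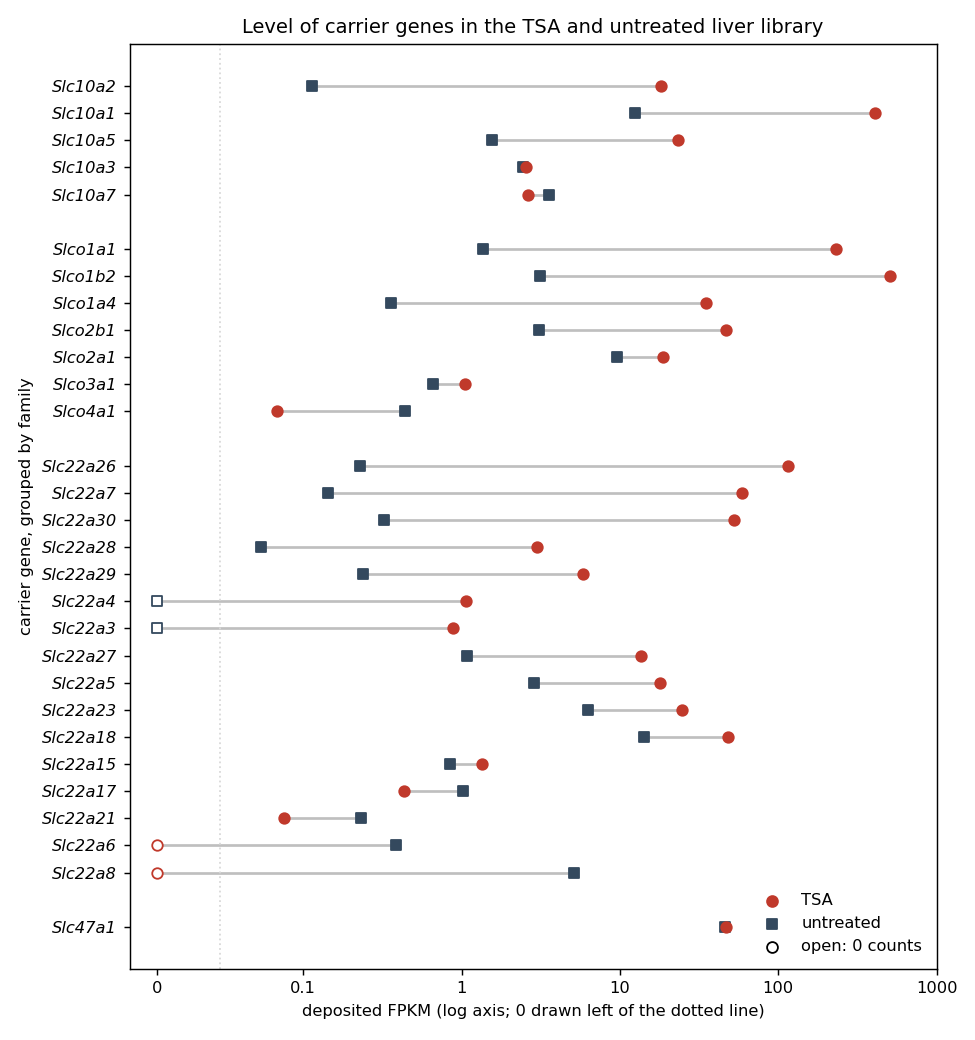
Deposited FPKM of 29 of the described carrier genes on a log axis, grouped by family, in the TSA library (circles) and the untreated library (squares), with 0 counts drawn open at the left. *Slco1b2* and *Slc10a1* reach 508 and 408 FPKM with TSA, *Slc47a1* stands at the same place in both libraries, and *Slc22a8* and *Slc22a6* have no counts with TSA.

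Markers of hepatocytes differed in the same direction as the carriers. Beside these and later marker counts stand the shares of all genes called with TMM, 26.0% higher and 27.4% lower. All 8 hepatocyte markers, *Alb* among them, were higher with TSA, their median log2 ratio was 4.36, and their summed FPKM was 52502 with TSA and 3761 without, a ratio of 14.0. In bulk tissue fewer cells of a type and less RNA per cell cannot be told apart. All 8 proliferation markers were lower with TSA, with a summed FPKM of 5.89 with TSA and 605 without. Of 7 fetal hepatocyte markers, 6 were lower and 1 was neither, with a summed FPKM of 21.3 with TSA and 4197 without. *Dlk1* and *Lin28b* had no counts with TSA, and no proliferation marker and no listed fetal marker was at 0 without treatment. The part of these differences in the carrier ratios was not tested.

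The bile acid carriers of the SLC10 family split into 3 that were far higher and 2 that were not called. *Slc10a1*, for the sodium-dependent uptake carrier of the hepatocyte, had 15274 counts (408 FPKM) with TSA, against 474 counts (12.5 FPKM) without treatment. It was 58.8-fold (53.7 to 64.6) higher, which places it above 97.2% of all tested genes, and 32.6-fold higher with total counts. *Slc10a2*, for the apical sodium-dependent carrier best known from the ileum, had 1275 counts (18.3 FPKM) with TSA and 8 counts (0.113 FPKM) without, a ratio of 291 (147 to 675). ASBT, its protein, is also known from the bile duct epithelium and the kidney. Of the cholangiocyte markers tested, 3 of 6 were higher and 3 lower with TSA, and their summed FPKM over the 8 listed was 22.7 with TSA and 39.6 without; *Cftr* was at 0 with TSA. FPKM is scaled by library totals, and the median log2 ratio of the 6 tested markers with TMM was -0.72. Their part in the *Slc10a2* ratio was not tested.

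*Slc10a5*, for a member whose substrate is not established, had 1555 counts (23.2 FPKM) with TSA and 105 counts (1.55 FPKM) without, and was 27.0-fold (22.2 to 33.3) higher. The remaining described members of the family were not called. *Slc10a3*, an orphan member, had 88 counts (2.55 FPKM) with TSA and 86 (2.46 FPKM) without, 1.87-fold (1.37 to 2.54) with TMM and 1.03-fold with total counts. *Slc10a7*, which in humans is tied to skeletal development, had 246 counts (2.61 FPKM) with TSA and 341 (3.58 FPKM) without, 1.32-fold (1.11 to 1.56) with TMM but 0.730-fold with total counts. The direction of *Slc10a7* thus depends on scaling.

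Among the Slco genes, for the organic anion transporting polypeptides, TMM called 6 of 7 described members higher and 1 lower, and total counts called 4 higher and 1 lower. *Slco1b2*, for the hepatocyte carrier of bile acids, bilirubin and statins, was the most abundant carrier with TSA, at 29256 counts (508 FPKM), against 182 counts (3.12 FPKM) without treatment. It was 293-fold (254 to 341) higher. *Slco1a1*, known as male-predominant in mouse liver, had 15769 counts (233 FPKM) with TSA and 94 counts (1.37 FPKM) without, 306-fold (250.0 to 379) higher. *Slco1a4*, known as the female-predominant member, had 2808 counts (35.2 FPKM) with TSA and 29 counts (0.359 FPKM) without, 177-fold (123 to 264) higher. Both *Slco1a1* and *Slco1a4* were higher with TSA. The labels do not give the sex of the animals, and its part in either ratio was not tested. *Slco2b1*, for a carrier of steroid sulfates, had 4219 counts (46.6 FPKM) with TSA and 280 counts (3.06 FPKM) without, 27.5-fold (24.4 to 31.1) higher.

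The remaining Slco genes differed far less and their calls rest on scaling or few counts. *Slco2a1*, for the prostaglandin transporter found on endothelium, had 1586 counts (18.7 FPKM) with TSA and 825 (9.63 FPKM) without, 3.51-fold (3.22 to 3.82) higher with TMM and 1.94-fold, not called, with total counts. Of 8 endothelial markers 6 were higher and 0 lower, with a summed FPKM of 123 with TSA and 51.0 without, a ratio of 2.41, and none was at 0; their part in the *Slco2a1* ratio was not tested. *Slco3a1*, widely expressed, had 97 counts (1.06 FPKM) with TSA and 61 (0.658 FPKM) without, 2.90-fold (2.09 to 4.07) higher with TMM and 1.61-fold, not called, with total counts. *Slco4a1*, for a thyroid hormone carrier, was the lower member, with 4 counts (0.0686 FPKM) with TSA and 26 (0.441 FPKM) without, 3.56-fold (1.24 to 14.0) lower. The wide interval follows from the few reads.

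**Figure D2:**
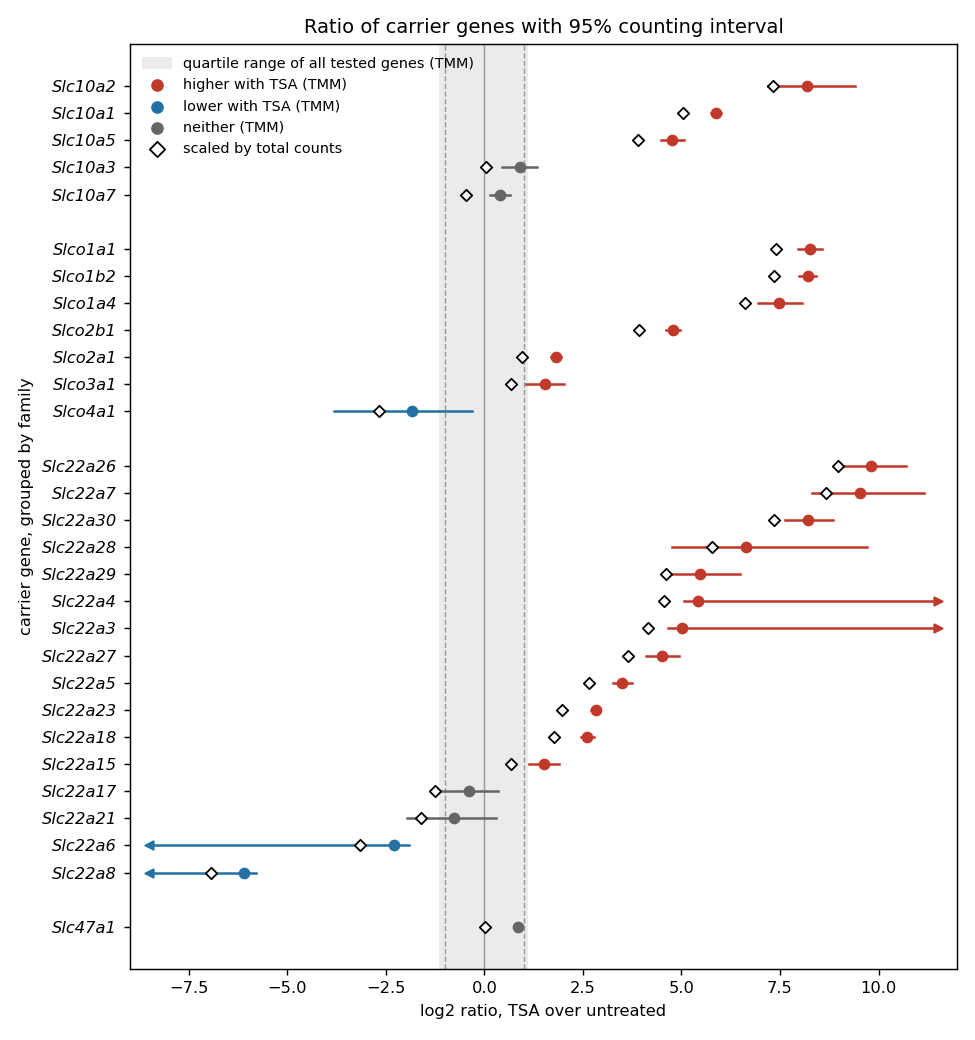
Log2 ratio of TSA over untreated for 29 of the described carrier genes, with 95% counting intervals after TMM scaling (filled points) and the ratio scaled by total counts (open diamonds); arrows mark intervals that are open because one library had 0 counts, and the grey band runs between the quartiles of all tested genes. *Slc22a26* lies furthest right and *Slc22a8* furthest left, and *Slco2a1*, *Slco3a1* and *Slc22a15* lie beyond the dashed 2-fold line with TMM and within it with total counts.

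Of the 17 described Slc22a genes TMM called 13 higher and 2 lower and left 2, and total counts called 12 higher and 4 lower. The organic cation transporters of this family take up metformin, thiamine and other positively charged compounds. *Slc22a3*, for the broadly expressed OCT3, had 53 counts (0.886 FPKM) with TSA and 0 without. Against a floor of 3 counts put in place of 0 it was 32.2-fold higher, with a counting interval that starts at 25.3-fold. *Slc22a2*, for the kidney form OCT2, had 2 counts with TSA and 0 without and is under the minimum.

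The carnitine and ergothioneine carriers lie next to each other in the genome and had different ratios. *Slc22a5*, for the carnitine transporter OCTN2, had 986 counts (18.0 FPKM) with TSA and 159 counts (2.87 FPKM) without, 11.3-fold (9.56 to 13.5) higher. *Slc22a4*, for the ergothioneine transporter OCTN1, had 70 counts (1.06 FPKM) with TSA and 0 without. Against the floor of 3 counts it was 42.6-fold higher, with an interval from 33.7-fold. *Slc22a21*, for the mouse carnitine carrier OCTN3, had 10 counts (0.0752 FPKM) with TSA and 31 (0.230 FPKM) without. It stood at 1.70-fold below the untreated level with TMM, with an interval that includes 1, and was 3.07-fold lower with total counts. Over GENCODE M21 transcripts 26.1% of the 50-base words of *Slc22a5* also occur in *Slc22a21*, and how shared reads were counted is not stated, so the division of reads between the pair is uncertain.

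The organic anion transporters of the SLC22 family held both the highest and the lowest ratios. *Slc22a7*, for the liver form OAT2, had 2021 counts (58.9 FPKM) with TSA and 5 counts (0.144 FPKM) without, 738-fold (316 to 2274) higher. *Slc22a26* had 6923 counts (115 FPKM) with TSA and 14 counts (0.230 FPKM) without, 903-fold (538 to 1652) higher, above 99.9% of all tested genes. It belongs to a rodent group of anion transporter genes that lie side by side on chromosome 19, *Slc22a26* to *Slc22a30*. All 5 were higher with TSA. *Slc22a30* had 3863 counts (52.3 FPKM) with TSA and 24 (0.322 FPKM) without, 294-fold (197 to 459) higher. *Slc22a27* had 647 counts (13.7 FPKM) with TSA and 52 (1.09 FPKM) without, 22.7-fold (17.1 to 30.7) higher. The ratios within this run therefore spanned from 22.7 to 903. *Slc22a29* had 265 counts (5.81 FPKM) with TSA and 11 (0.238 FPKM) without, 44.0-fold (24.2 to 89.2) higher. *Slc22a28* had 109 counts (2.99 FPKM) with TSA and 2 (0.0543 FPKM) without, 99.5-fold (26.9 to 832) higher. These genes share sequence: 53.3% of the 50-base words of *Slc22a28* occur in *Slc22a30*, and 25.3% of those of *Slc22a27* in *Slc22a29*, so single ratios are uncertain. Summed, the 5 genes had 11807 counts with TSA and 103 without, 209-fold (172 to 257) higher.

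On the same chromosome, with no more than 3 other coding genes between neighbours in the RefSeq order, follow *Slc22a8* and *Slc22a6*, for OAT3 and OAT1, which are known as the anion uptake carriers of the kidney proximal tubule. *Slc22a8* had 0 counts with TSA and 373 counts (5.13 FPKM) without treatment. It was 68.1-fold lower against the floor of 3 counts, and its counting interval starts at 55.1-fold. *Slc22a6* had 0 counts with TSA and 27 counts (0.388 FPKM) without, 4.93-fold lower against the same floor with an interval from 3.74-fold. The run thus held 5 higher genes beside 2 lower ones. At 0 counts the TSA library allows up to 3 counts of either gene. In the untreated library *Slc22a8* was the sixth most abundant carrier, ahead of *Slco1b2*. Among 13027 tested genes, 104 had at least 20 counts without treatment and 0 with TSA.

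Kidney tubule markers were read beside these 2 genes. In the untreated library 4 of the 8 markers had 0 counts, *Umod*, *Aqp2* and *Kap* among them, *Slc12a1* and *Slc12a3* had 1 count each and *Slc34a1* had 2. The exception was *Lrp2*, for the endocytic receptor megalin of the proximal tubule, with 1 count with TSA and 1581 without. With TSA 7 of the 8 markers were at 0, and the summed FPKM of the 8 was 0.00378 with TSA and 5.98 without. Of further kidney-type anion carriers, *Slc22a12* (URAT1) had 0 counts in both libraries, and *Slc22a13* (OAT10) had 0 with TSA and 3 without.

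The orphan and less studied SLC22 members had moderate ratios. *Slc22a23* had 2965 counts (24.7 FPKM) with TSA and 762 (6.27 FPKM) without, 7.10-fold (6.56 to 7.70) higher. *Slc22a18*, an imprinted gene, had 1477 counts (48.0 FPKM) with TSA and 440 (14.1 FPKM) without, 6.13-fold (5.50 to 6.83) higher. Both stayed higher with total counts, at 3.94-fold and 3.39-fold. *Slc22a15* had 152 counts (1.34 FPKM) with TSA and 97 (0.845 FPKM) without, 2.86-fold (2.20 to 3.73) higher with TMM and 1.58-fold, not called, with total counts. *Slc22a17*, which is best known from brain, had 22 counts (0.430 FPKM) with TSA and 53 (1.03 FPKM) without. It stood at 1.32-fold below the untreated level with TMM, with an interval that includes 1, and was 2.38-fold lower with total counts.

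Like *Slc10a3*, the exporter *Slc47a1* had nearly equal counts in the libraries. It had 2907 counts (46.7 FPKM) with TSA and 2920 counts (46.3 FPKM) without, a ratio of 1.82 (1.73 to 1.91) with TMM and 1.01 with total counts, and was called with neither. Without treatment it was the most abundant carrier and held 38.3% of the summed FPKM of the 48 genes, and with TSA it was the ninth and held 2.47%. Its neighbour *Slc47a2* had 0 counts with TSA and 2 without.

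The make-up of the carrier transcripts was therefore unlike in the libraries. With TSA *Slco1b2* held 26.9%, *Slc10a1* 21.6%, *Slco1a1* 12.3% and *Slc22a26* 6.09% of the summed carrier FPKM. Without treatment *Slc47a1* was followed by *Slc22a18* with 11.7%, *Slc10a1* with 10.3%, *Slco2a1* with 7.96%, *Slc22a23* with 5.19% and *Slc22a8* with 4.24%. *Slc10a1* alone stood among the top 3 in both libraries. The 5 most abundant genes held 77.6% with TSA and 73.5% without, so the sum was about as concentrated in both.

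**Figure D3:**
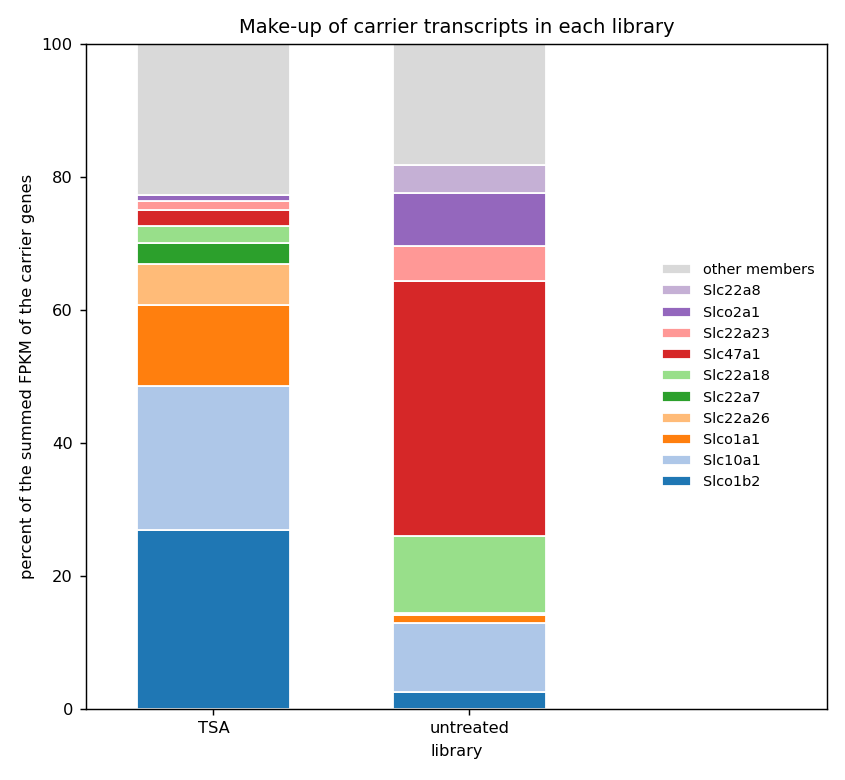
Percent of the summed FPKM of the 48 carrier genes held by 10 of the genes that ranked among the 6 most abundant in either library, with TSA on the left and untreated on the right; all other members together are grey. *Slco1b2* takes 26.9% with TSA and *Slc47a1* takes 38.3% without treatment.

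The 18 members under the minimum had at most 10 counts summed over both libraries. *Slc10a6*, for a steroid sulfate carrier, had 9 counts with TSA and 1 without. *Slc22a14* had 0 with TSA and 1 without, and *Slco4c1* and *Slco5a1* had 1 each with TSA and 0 without. The other 11 had 0 counts in both libraries, which allows up to 3 counts in each. They were *Slc10a4*, *Slc22a12*, *Slc22a16*, *Slc22a19*, *Slc22a20*, *Slc22a22*, *Slco1a5*, *Slco1a6*, *Slco1c1*, *Slco6c1* and *Slco6d1*, most of them known from testis, brain, kidney or nose. In the Slco1 run on chromosome 6, *Slco1b2*, *Slco1a4* and *Slco1a1* were thus high with TSA while *Slco1c1*, *Slco1a6* and *Slco1a5* on either side were at 0.

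Partners of the carriers in bile acid synthesis and export were read from a separate list. Of 18 tested 13 were higher, 3 lower and 2 neither with TMM, and total counts gave 12 higher and 3 lower. Of all genes 26.0% were higher and 27.4% lower with TMM, and 16.0% and 48.7% with total counts. The median log2 ratio was 2.96. *Slc27a5*, for the bile acid CoA ligase, had 16981 counts (426 FPKM) with TSA and 123 (3.05 FPKM) without, and *Abcc2*, for the canalicular conjugate pump, 10584 counts (110 FPKM) with TSA and 2737 (28.1 FPKM) without. *Abcc2* was 7.06-fold (6.77 to 7.36) higher. *Abcg5*, for a subunit of the canalicular sterol exporter, had the highest ratio of the list, 275-fold (166 to 492). The lower members were *Abcb1b*, for a drug efflux pump, at 8.55-fold, *Abcc1* at 5.94-fold and *Abcc4*, for a basolateral conjugate pump, at 5.28-fold below the untreated level. *Abcc1* and *Abcc4*, and *Abcb11*, for the bile salt export pump, at 29.9-fold (26.8 to 33.4) higher, are named after their values were seen. *Slc51a* was at 0 in both libraries.

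Regulators known to act on carrier genes had ratios nearer to 1. Of 19 tested 10 were higher, 1 lower and 8 neither with TMM, and total counts gave 7 higher and 4 lower. The shares of all genes, here and for the factor list below, were 26.0% higher and 27.4% lower with TMM. With total counts they were 16.0% and 48.7%. The median log2 ratio was 1.30. *Nr1i3*, for the xenobiotic receptor CAR, had 5017 counts with TSA and 53 without, 173-fold (132 to 231) higher. *Hnf4a* had 12221 counts with TSA and 9078 without, 2.46-fold (2.39 to 2.52) higher with TMM and 1.36-fold, not called, with total counts. *Rxra*, for the common partner of nuclear receptors, was 3.52-fold (3.39 to 3.65) higher with TMM and 1.95-fold, not called, with total counts. *Klb*, for a co-receptor of bile acid feedback, was 2.07-fold lower. Hepatocyte transcription factors formed a further list of 12, which shares genes with the regulator list, and of which TMM gave 9 higher and 0 lower and total counts 4 higher and 2 lower, with a median log2 ratio of 1.20.

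**Figure D4:**
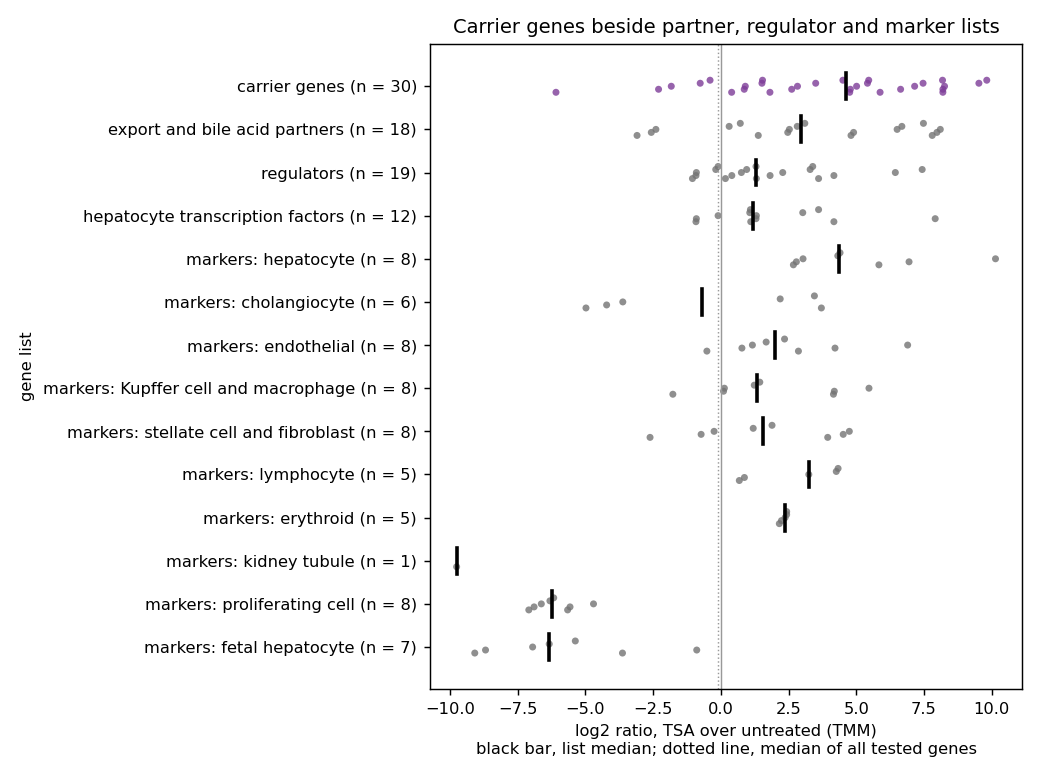
Log2 ratio of TSA over untreated after TMM scaling for each tested gene of the carrier set, the partner and regulator lists and the marker lists, with the list median as a black bar and the median of all genes dotted. The carrier median of 4.63 lies beside the hepatocyte marker median of 4.36, and the medians of proliferation and fetal markers lie on the opposite side of 0.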

How the data were processed

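PolyA RNA of mouse liver was read in 2 libraries, 1 per group. The counts deposited by the authors are whole, unscaled reads per gene symbol, and deposited FPKM follows from count, gene model length and library total: each of the 14271 genes counted in both libraries gave equal lengths, to 0.1 base. The submitters' processing notes name Trimmomatic, HISAT2, Bowtie2 and DESeq without roles, and the build, annotation, counter and strand setting are not stated there. Library totals were 17088227 counts (TSA) and 17281523 (untreated).

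Scaling was by TMM in edgeR 4.0.16 (R 4.3.3), with factors of 0.744 for TSA and 1.34 for untreated, and DESeq2 1.42.0 size factors as an alternative. Intervals are exact conditional binomial (Clopper-Pearson, 95%, scipy 1.17.1) and cover counting error alone, because each group has 1 library. Reads lacking molecular identifiers do not count separate molecules, so even the counting error may be understated. For a count of 0, 3 counts were used as the floor. The calls were tested on data simulated with counting error alone and few changed genes. That test covers neither variation between animals nor scaling where many genes differ. Carriers with at least 20 summed counts are named, except an item that is not reported here; of the partner and regulator lists, the 2 genes with most counts and those with the highest and lowest ratio. The members and lists were chosen with earlier results of these data known. Word sharing was counted over GENCODE M21 transcripts matched by symbol. Likeness of the proteins was not analysed here.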

Additional observations from a re-analysis of the deposited data

How the results depend on the processing

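No paired analysis was possible because each group has 1 library. The number of carriers called higher was 22 and lay between 18 and 24 under every alternative run. The number called lower, 3, was 5 with total counts and 5 when the median of the hepatocyte transcription factor list was set to a ratio of 1, and 1 with at least 50 summed counts, which leaves out *Slc22a6* and *Slco4a1*. *Slc22a15*, *Slco2a1* and *Slco3a1* lost their higher call, and *Slc22a17* and *Slc22a21* were called lower, under both of those scalings. The median log2 ratio of the carriers, 4.63, was 3.78 with total counts, 3.43 with the hepatocyte factors at 1, 3.42 with FPKM plus 0.1, and 3.16 when *Slc22a26* to *Slc22a30* were summed into 1 entry, an alternative chosen after seeing the data. Relative to all genes it was 4.74, and 3.28 with that sum. No ratio of a called carrier turned its direction under the 7 scaling, pseudocount and thinning alternatives run on single genes. Carriers with few reads, such as *Slco4a1* and *Slc22a28*, are limited by depth.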

Other observations

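The letters around the starts of the carriers were also searched for GTTAAT, a half-site of the factor HNF1, and for 3 general promoter elements, on both strands. GTTAAT stood in 5 of the 27 windows (18.5%) and in 7.10% of all stretches of the reference. Its windows belonged to *Slc10a2*, *Slc22a29* and *Slco1b2*, higher with TSA, and to *Slc22a6* and *Slc22a8*, lower with TSA. Whether this share differs from that of the reference was not tested. The TATA box letters TATAAA stood in 4 of the 27 windows (14.8%) and in 13.6% of all stretches of the reference. The GC box letters GGGCGG stood in 6 windows (22.2%), against 35.7% of all stretches, and the CCAAT box letters CCAAT in 6 (22.2%), against 37.4%. The windows with a GC box belonged to *Slc22a15*, *Slc22a23*, *Slc22a4*, *Slc22a5*, *Slco2a1* and *Slco4a1*, and those with TATAAA to *Slc10a1*, *Slco1a1*, *Slco1b2* and *Slco2a1*.

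As lists, markers of the other cells below had smaller median log2 ratios than hepatocyte markers, at 4.36. The medians were 1.33 for Kupffer cells and macrophages, 1.54 for stellate cells and fibroblasts, 3.25 for lymphocytes and 2.37 for erythroid cells. Single markers overlapped with those of hepatocytes, of which *Ttr* was 6.39-fold higher. *Clec4f* of the macrophage list was 44.3-fold higher and *Cd68* 3.42-fold lower. In the stellate list *Reln* was 26.8-fold higher and *Col1a1* 6.13-fold lower. Of 8 Kupffer cell and macrophage markers 5 were higher and 1 lower with TMM (3 and 1 with total counts), and their summed FPKM was 196 with TSA and 203 without. Of 8 stellate cell and fibroblast markers 5 were higher and 1 lower (4 and 3 with total counts), at a summed 124 FPKM with TSA and 85.7 without. Of 5 lymphocyte markers tested 3 were higher and none lower under either scaling, at a summed 7.56 FPKM with TSA and 5.33 without. All 5 erythroid markers tested were higher under either scaling, at a summed 421 FPKM with TSA and 150.0 without. Of all genes 26.0% were higher and 27.4% lower with TMM, and 16.0% and 48.7% with total counts, and some of these counts lie near those shares.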
